A study of Mus musculus with 12 samples.

Results

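Gene expression in the cerebrum was compared between mice given phosphatidylserine (PS) and mice given its vehicle, medium-chain triglycerides (MCT). The comparison used 6 of the 12 arrays of the series, the 3 cerebrum arrays labelled as treated against the 3 labelled as control. It took in all 21218 of the 35556 transcript clusters to which the platform annotation gives 1 gene symbol, which together name 18820 genes. A transcript cluster is the set of probes that the array uses for a transcript. The question the series asks is whether PS alters expression in mice with familial dysautonomia (FD). The mice were of the strain C57BL/6J, and all arrays, vehicle included, carry the same genotype label, a humanized knock-in with 1 FDloxP allele (FDloxP/+). Gavage began at 4 months of age and was repeated every other day for 3 months, each dose holding 200 mg/kg of PS, or MCT alone, in 100 µl. The labels differ on the animals and the dose. By the series design all 6 were FD mice, by the growth protocol 3 were FD and 3 wild-type, and the source names state the 200 mg as a daily amount. The labels call the arrays biological replicates, so p-values measure the spread between these arrays, whose small number limits the precision.

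PS is an acidic phospholipid of the inner leaflet of cell membranes and is abundant in brain. There it helps to recruit protein kinase C and calcium sensors such as the synaptotagmins to membranes, flippases keep it on the cytoplasmic side, and once exposed it marks cells for engulfment. FD is an inherited disorder of the sensory and autonomic nervous system. Elongator is a complex that modifies uridines of transfer RNA anticodons. The cerebrum holds cortex, hippocampus and striatum, each with its own neuronal genes, and in a bulk sample fewer cells of a type and less RNA per cell cannot be told apart.

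Values are log2 intensities, on which a difference of 1 is a doubling. Array medians ran from 4.90 to 5.0. Correlations across transcript clusters, which are not independent replicates, were 0.994 to 0.997 within MCT, 0.990 to 0.994 within PS and 0.982 to 0.994 between the groups. The labelled tissue was borne out by its neuronal markers, since Snap25 and Syt1 lay at 11.74 to 12.44 in all 6 arrays. Of the heart markers measured, the ventricular myosin gene Myl2 lay at 3.78 to 4.15 and Tnnt2 higher, at 6.43 to 6.73. The arrays did not all carry the same sex-linked or regional transcripts. Xist, the RNA of the inactive X chromosome, was 3.77, 3.34 and 3.62 in MCT 1 to 3 and 9.55, 3.32 and 9.86 in PS 1 to 3. The Y-linked Uty was 7.37, 7.23 and 7.19 in MCT and 3.17, 7.23 and 3.17 in PS. PS 1 and PS 3 thus had the female pattern, and the other 4 arrays the male pattern. In heart all PS arrays, PS 2 included, had the female pattern, so cerebrum PS 2 and heart PS 2 cannot both be from 1 animal, and an exchange of samples was not tested.

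Markers of neighbouring tissue also differed between arrays. The 4 pituitary hormone genes averaged 8.23 in PS 3, 4.96 in PS 1 and 4.04 to 4.24 in the other arrays, with prolactin (Prl) at 10.49 in PS 3, 5.16 in PS 1 and at most 3.47 elsewhere. Ttr, the transthyretin of the choroid plexus, was 10.82 and 11.54 in MCT 1 and MCT 2 and 4.34 to 6.70 in MCT 3 and the PS arrays. The 4 choroid plexus markers averaged 6.48, 7.19 and 4.96 in MCT and 4.60, 3.90 and 4.77 in PS, with Folr1 at 4.10 to 4.92 throughout. MCT 2 had the highest mean of the 3 thalamic markers (7.48, against 6.21 to 6.59 in the other arrays). It also had that of the 3 cerebellar markers (5.73, against 3.87 to 4.52). The thalamic marker Lef1 differed, at 6.23 in MCT 2 and 6.31 and 6.34 in PS 1 and PS 2. The 4 measured markers of striatal projection neurons averaged 9.55 to 9.71 in MCT, and PS 1 (6.94) and PS 2 (7.06) were below PS 3 (8.98). The part of these regional differences in the results was not tested, and the sex pattern was entered as a term in an alternative fit given with the counts.

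**Figure D1:**
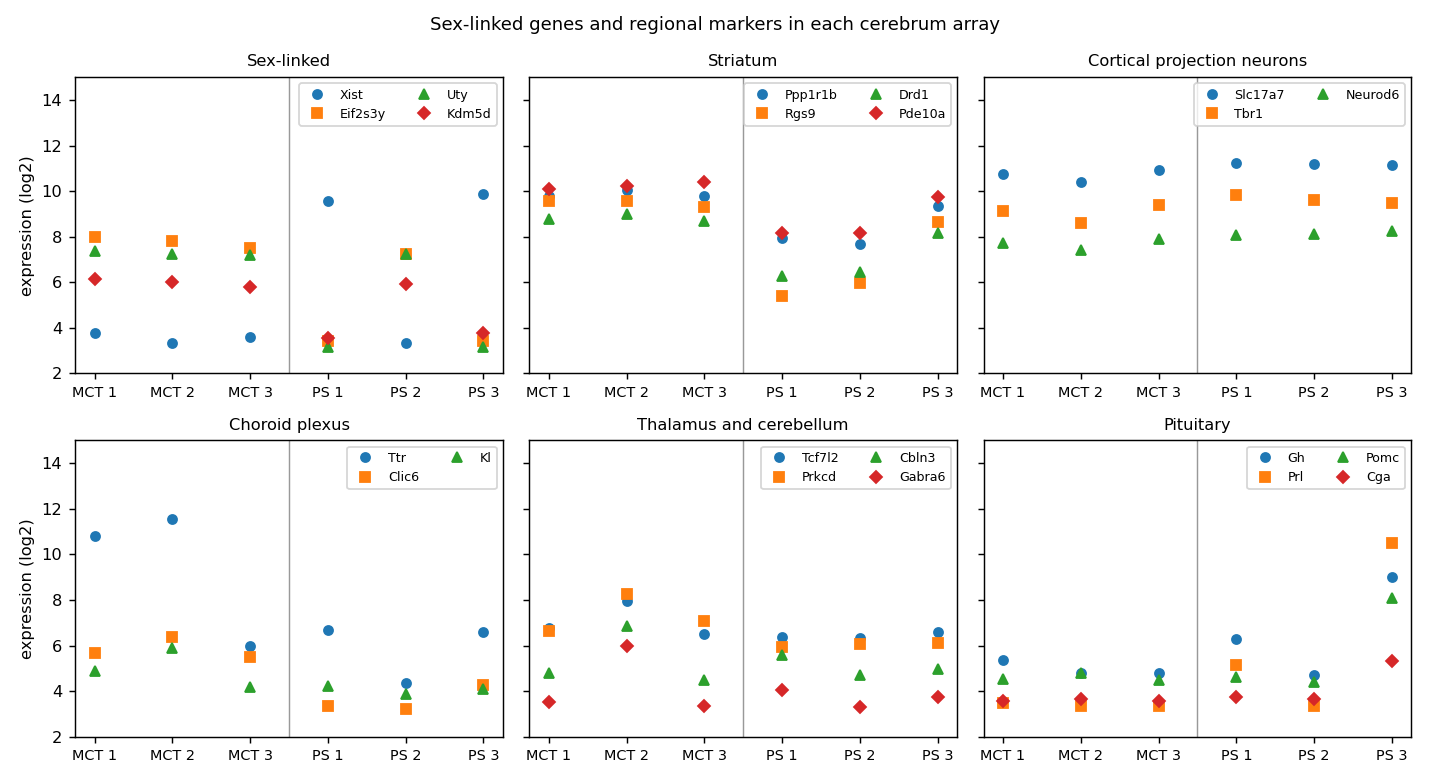
Log2 expression of sex-linked genes and regional marker genes in each of the 6 cerebrum arrays, MCT left and PS right of the grey line. Xist is high in PS 1 and PS 3, striatal markers are low in PS 1 and PS 2, Ttr is high in MCT 1 and MCT 2, and pituitary hormone genes are high in PS 3.

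In limma, 734 of 12733 tested transcript clusters (5.76%) passed a Benjamini-Hochberg adjusted p of 0.05. Of these, 233 were higher with PS (1.83%) and 501 lower (3.93%). Transcript clusters were tested if their mean over the 6 arrays was at least 5.04, the 40th percentile. Calls belonged to 678 genes, 224 higher and 454 lower. The 2 groups did not overlap for 4173 transcript clusters (32.8%), with PS above MCT for 1578 (12.4%) and below for 2595 (20.4%), and all 734 called were among them. Called differences were moderate, with a median size of 0.54 and a smallest size of 0.30. Only 82 exceeded 1, 64 of them lower and 18 higher. An unadjusted p under 0.05 was reached by 3692 (29.0%), the share beside which such counts are to be read in the gene lists. Over all tested transcript clusters the median difference was −0.03, and with each array centred on its median 988 passed, 17.6% of them higher in place of 31.7%.

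**Figure D2:**
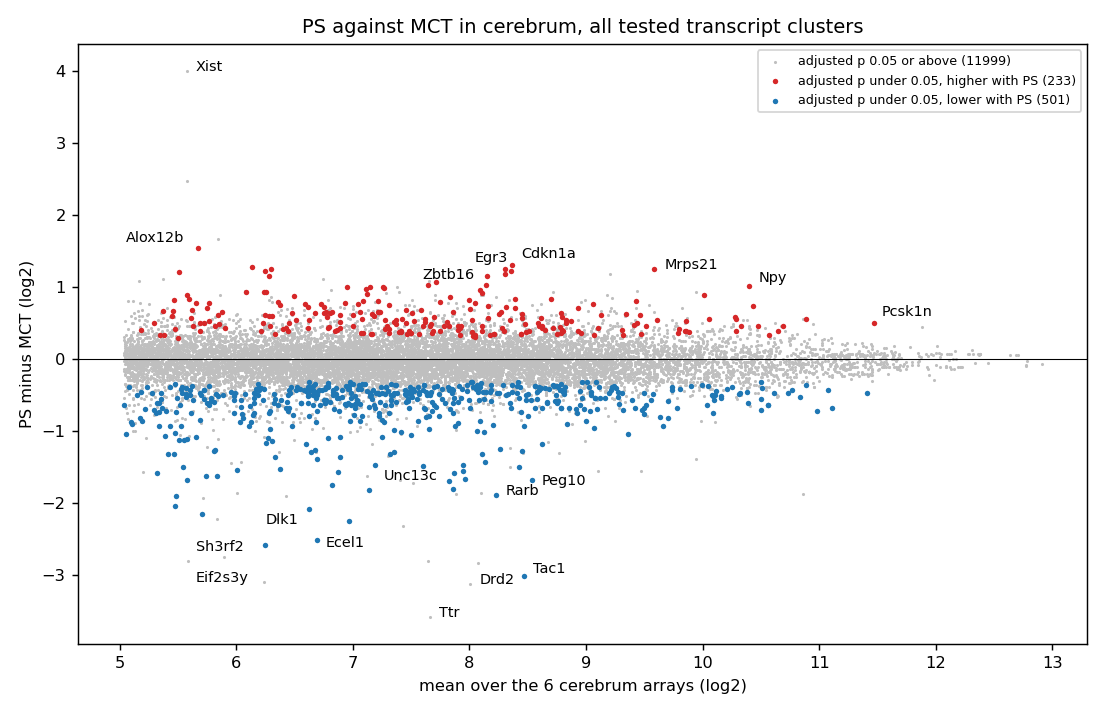
Difference between the PS and MCT means (log2) against the mean over the 6 arrays (log2) for the 12733 tested transcript clusters. Red and blue points passed limma's adjusted p of 0.05, and the largest called differences lie below 0, whereas Xist, Ttr, Drd2 and Eif2s3y are far from 0 and did not pass.

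The number of calls depended on each array in the fit. It was 0 in limma when MCT 1 was left out (2303 had an unadjusted p under 0.05) and 0 when PS 1 was (2945 with such a p). It was 2 when MCT 2 was left out, namely Ecel1 and Snora44, a gene of a small nucleolar RNA. It was 145 after omission of PS 2, 615 after that of MCT 3 and 1557 after that of PS 3. Every call given here therefore ends in at least 2 of these 6 fits. The 153 called genes singled out by rule kept their direction in all of them. That was fixed in advance, because the groups of called genes do not overlap, so it is no measure of stability. With the Xist pattern as a term in the model, the PS difference is that of PS 2 alone from MCT, since PS 2 is the only PS array with the pattern of MCT. It was −2.49 for Dlk1 and 1.83 for Arc. A fit that rests on 1 PS array cannot show whether the calls hold apart from sex.

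**Figure D3:**
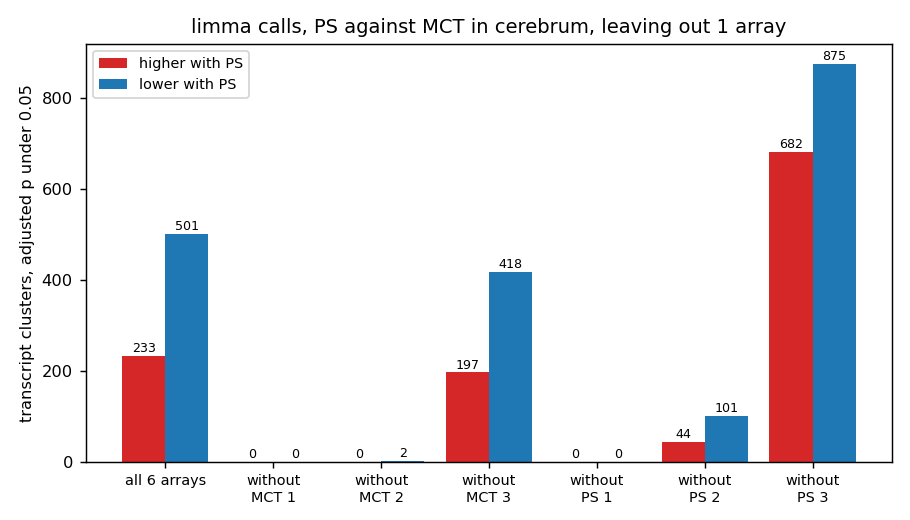
Number of transcript clusters past limma's adjusted p of 0.05, higher (red) and lower (blue) with PS, with all 6 arrays and with each array left out. The count is 233 higher and 501 lower with all arrays, 0 without MCT 1 or PS 1, and 682 higher and 875 lower without PS 3.

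Among genes that rose, those with the lowest p-values had varied roles. Zbtb16, a zinc finger transcription factor, was 7.55, 7.42 and 7.75 in MCT and 8.86, 8.62 and 8.72 in PS, a 2.23-fold rise (1.16 ± 0.11 on the log2 scale, SE, limma adjusted p = 0.0136). Efhd2, a calcium-binding regulator of actin, was 9.61, 9.56 and 9.53 in MCT and 10.50, 10.55 and 10.33 in PS, a rise of 0.89 ± 0.09. The 3 PS arrays lay close together for both genes, and above every MCT array, as was so for every gene called higher. Mrps21, a protein of the mitochondrial ribosome, rose 2.37-fold, from 9.10, 9.08 and 8.70 to 10.12, 10.25 and 10.25. Eif4ebp2, the brain's main repressor of the cap-binding translation factor, rose by 0.63 ± 0.07, from 8.10, 8.20 and 8.11 to 8.80, 8.77 and 8.74. The microtubule kinase Mark2 rose by 0.69, the calcium-binding S100a11 by 0.78 and Sox18, a transcription factor of endothelial cells, by 0.89. Igsf9b, an adhesion protein of inhibitory synapses, rose by 0.80, the mitochondrial sulfur dioxygenase Ethe1 by 0.66, Cuta by 0.61 and Yjefn3 by 0.91. For Mark2, 1 of its 2 tested transcript clusters passed. Lrg1, a secreted glycoprotein, rose by 1.21 from an MCT mean below the filter, so that its size is uncertain.

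Among protein-coding genes that fell, those with the lowest p-values were likewise varied, and small RNA genes with p-values as low are described with their class. Ecel1, a neuronal membrane peptidase of the neprilysin family, was 7.77, 8.31 and 7.76 in MCT and 5.30, 5.21 and 5.81 in PS, 5.68-fold lower (−2.51 ± 0.20, limma adjusted p = 0.0136). It was the one named gene past the threshold in 4 of the 6 fits that left out an array. Glra2, the α2 subunit of glycine receptors, was 7.33, 7.36 and 7.23 in MCT and 5.80, 6.15 and 6.20 in PS (−1.26 ± 0.12). Ptgr2, a reductase of prostaglandin breakdown, was 8.16, 8.26 and 8.0 in MCT and 7.10, 7.25 and 7.17 in PS (−0.97 ± 0.09). In these 3 genes all PS arrays, PS 3 included, lay below every MCT array, as was so for every gene called lower. Lmo2, a transcriptional adaptor, fell by 0.84, the histamine-inactivating enzyme Hnmt by 0.77, Rragb, a Rag GTPase that signals amino acids to mTORC1, by 0.67, and Tsen15, a subunit of the transfer RNA splicing endonuclease, by 0.79. Plppr1 fell by 1.08, Sytl5, a Rab27 effector of vesicle transport, by 1.26, the nucleosome-binding Hmgn5 by 0.77, the cell surface proteoglycan Gpc3 by 0.87 and H2-Ke6 by 0.87.

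**Figure D4:**
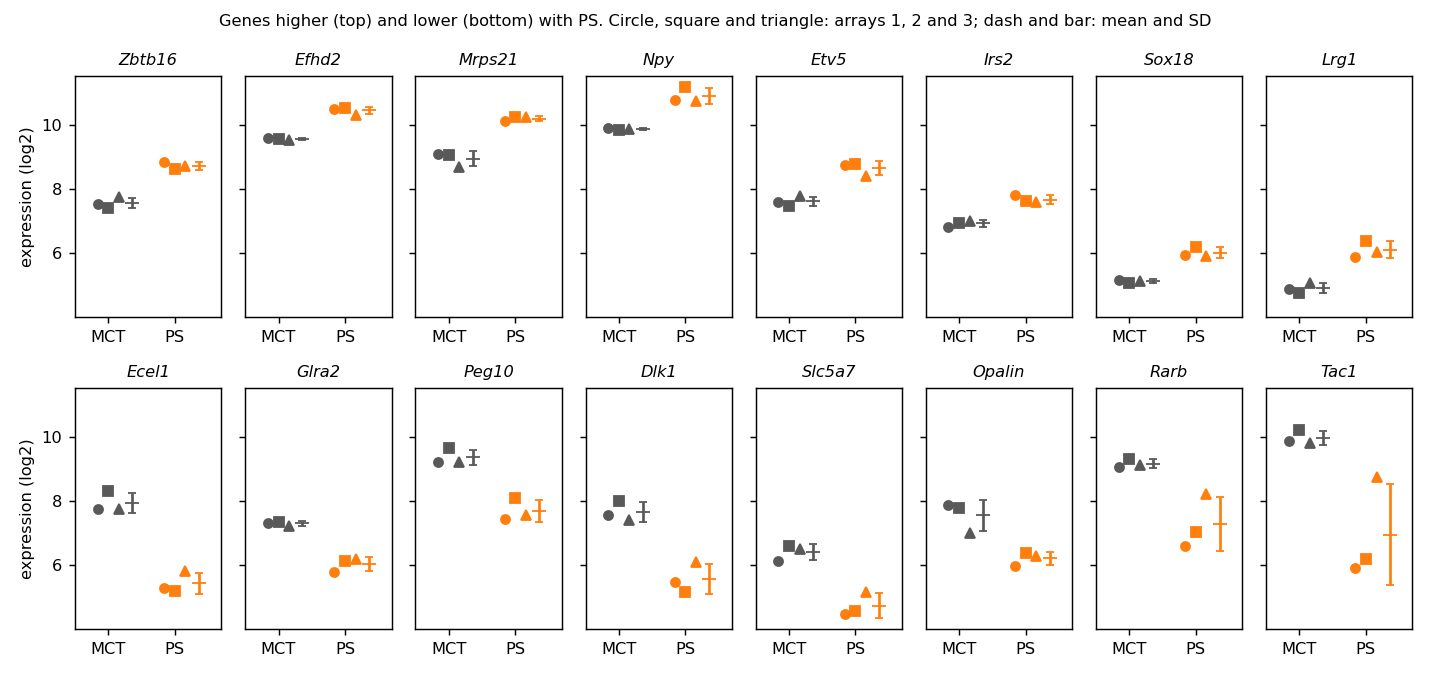
Log2 expression in each cerebrum array of 8 genes that rose and 8 that fell, with the mean and SD (n = 3) of each group beside the points. All PS arrays lie above the MCT arrays in the top row and below them in the bottom row, and in every called gene the groups likewise do not overlap. For Rarb and Tac1 PS 3 lies between the other PS arrays and MCT.

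Genes of striatal projection neurons, the medium spiny neurons through which the striatum acts on movement and reward, included some of the largest falls. Of 25 tested genes shared by both classes of these neurons 22 were lower and 8 fell, with a median of −1.04, beside −0.02 over the 11234 genes tested at 1 transcript cluster each. Scn4b, a sodium channel β subunit, was 9.19, 9.21 and 9.23 in MCT and 7.80, 7.94 and 8.38 in PS (−1.17 ± 0.14, limma adjusted p = 0.016). Rarb, a retinoic acid receptor, was 9.06, 9.32 and 9.14 in MCT and 6.60, 7.03 and 8.24 in PS, 3.69-fold lower. PS 3 thus stood between the groups. Tmem158 (−1.08), Syndig1l (−1.53), the activator of Rap GTPases Rasgrp2 (−1.29), the calmodulin-dependent phosphodiesterase Pde1b (−1.04), striatin (Strn, −0.79) and the kinase Dclk3 (−0.50) fell as well. The best-known of these genes did not pass, with DARPP-32 (Ppp1r1b) at 9.79, 10.05 and 9.79 in MCT and 7.93, 7.69 and 9.35 in PS (adjusted p = 0.0568), and Rgs9 at 9.58, 9.56 and 9.32 against 5.38, 5.95 and 8.65 (adjusted p = 0.0623).

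Of 8 tested genes of direct-pathway neurons, which carry D1 receptors, 6 were lower and 2 fell, with a median of −0.50 (−0.86 without PS 3 and −0.31 with the filter at the 60th percentile). These were Tac1, the precursor of substance P, at 9.88, 10.23 and 9.81 in MCT and 5.92, 6.19 and 8.77 in PS, and Slc35d3 at 6.38, 6.67 and 6.62 against 4.31, 4.61 and 5.88. The D1 receptor gene Drd1 was 8.78, 9.0 and 8.69 in MCT and 6.27, 6.44 and 8.15 in PS (limma adjusted p = 0.0534), whereas the opioid precursor Pdyn overlapped between groups. Of 6 tested genes of indirect-pathway neurons, which carry D2 receptors, 5 were lower, 4 had an unadjusted p under 0.05 and 0 passed limma's threshold. Drd2 was 9.49, 9.69 and 9.53 in MCT and 5.55, 4.97 and 8.82 in PS, and enkephalin (Penk) 11.80, 11.81 and 11.77 against 9.08, 9.13 and 11.57. PS 1 and PS 2 were far below MCT in both genes and PS 3 was near it, as in the list's medians per array, which were −2.45, −2.66 and −0.43 relative to the MCT mean. Sh3rf2, which is on none of these lists, had the same order of arrays, with 7.36, 7.86 and 7.38 in MCT and 4.24, 4.22 and 6.41 in PS (−2.58 ± 0.55). Its PS 1 and PS 2 values were below the filter value as well, so this size is uncertain too.

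Cholinergic genes were lower in all 5 tested members, 3 of which fell, with 6 more below the filter. The high-affinity choline transporter Slc5a7, which limits acetylcholine synthesis, was 6.13, 6.61 and 6.51 in MCT and 4.48, 4.56 and 5.18 in PS (−1.68 ± 0.21, limma adjusted p = 0.0159). The vesicular transporter Slc18a3 was 5.43, 5.94 and 5.35 in MCT and 4.35, 4.43 and 4.84 in PS, and the orphan vesicular transporter Slc10a4 fell by 2.15. All 3 PS means lay below the filter, so the sizes are uncertain. The acetylcholine-degrading Ache (−0.60) and the neurotrophin receptor Ngfr (−0.40) did not pass. Of 7 tested genes of dopamine synthesis and transport, Qdpr, which recycles the biopterin cofactor of tyrosine hydroxylase, fell by 0.68 and Nr4a2, a transcription factor of dopamine neurons that is also activity-induced, rose by 0.73. Tyrosine hydroxylase (Th) overlapped, at 6.33, 6.61 and 5.52 in MCT and 4.29, 4.68 and 7.41 in PS. Among monoamine and muscarinic receptors, 19 of which were tested, Drd3 fell by 1.90 and the serotonin receptor Htr4 by 1.02, from 6.01, 6.16 and 5.80 to 4.90, 4.87 and 5.13, while the adrenergic receptor Adra1b rose by 0.47.

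Cortical genes went the other way or were mixed. All 13 tested genes of the upper cortical layers were higher with PS and 0 passed limma's threshold (3 had an unadjusted p under 0.05). Their median was 0.41, or 0.20 without PS 2 and 0.69 without PS 3, with 0.64, 0.79 and −0.05 in PS 1 to 3 relative to the MCT mean. Lamp5 was nearest to the threshold, at 9.70, 9.06 and 9.68 in MCT and 10.43, 10.88 and 9.93 in PS. Of 20 tested genes of the deep layers, 10 were higher and 10 lower. Fezf2, which specifies subcortical projection neurons, rose by 0.74, from 7.89, 7.51 and 7.98 to 8.83, 8.46 and 8.31, and Cplx3, a complexin of subplate-derived neurons, rose by 0.69. Foxp2, a transcription factor of layer 6 and of striatal neurons, fell by 0.86. In the hippocampal list 1 of 13 tested genes passed, the mannosidase Man1a (−0.75), and in the thalamic list 11 of 13 were lower, 3 with an unadjusted p under 0.05 and 0 past limma's threshold, with a median of −0.29 (−0.15 without MCT 2).

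**Figure D5:**
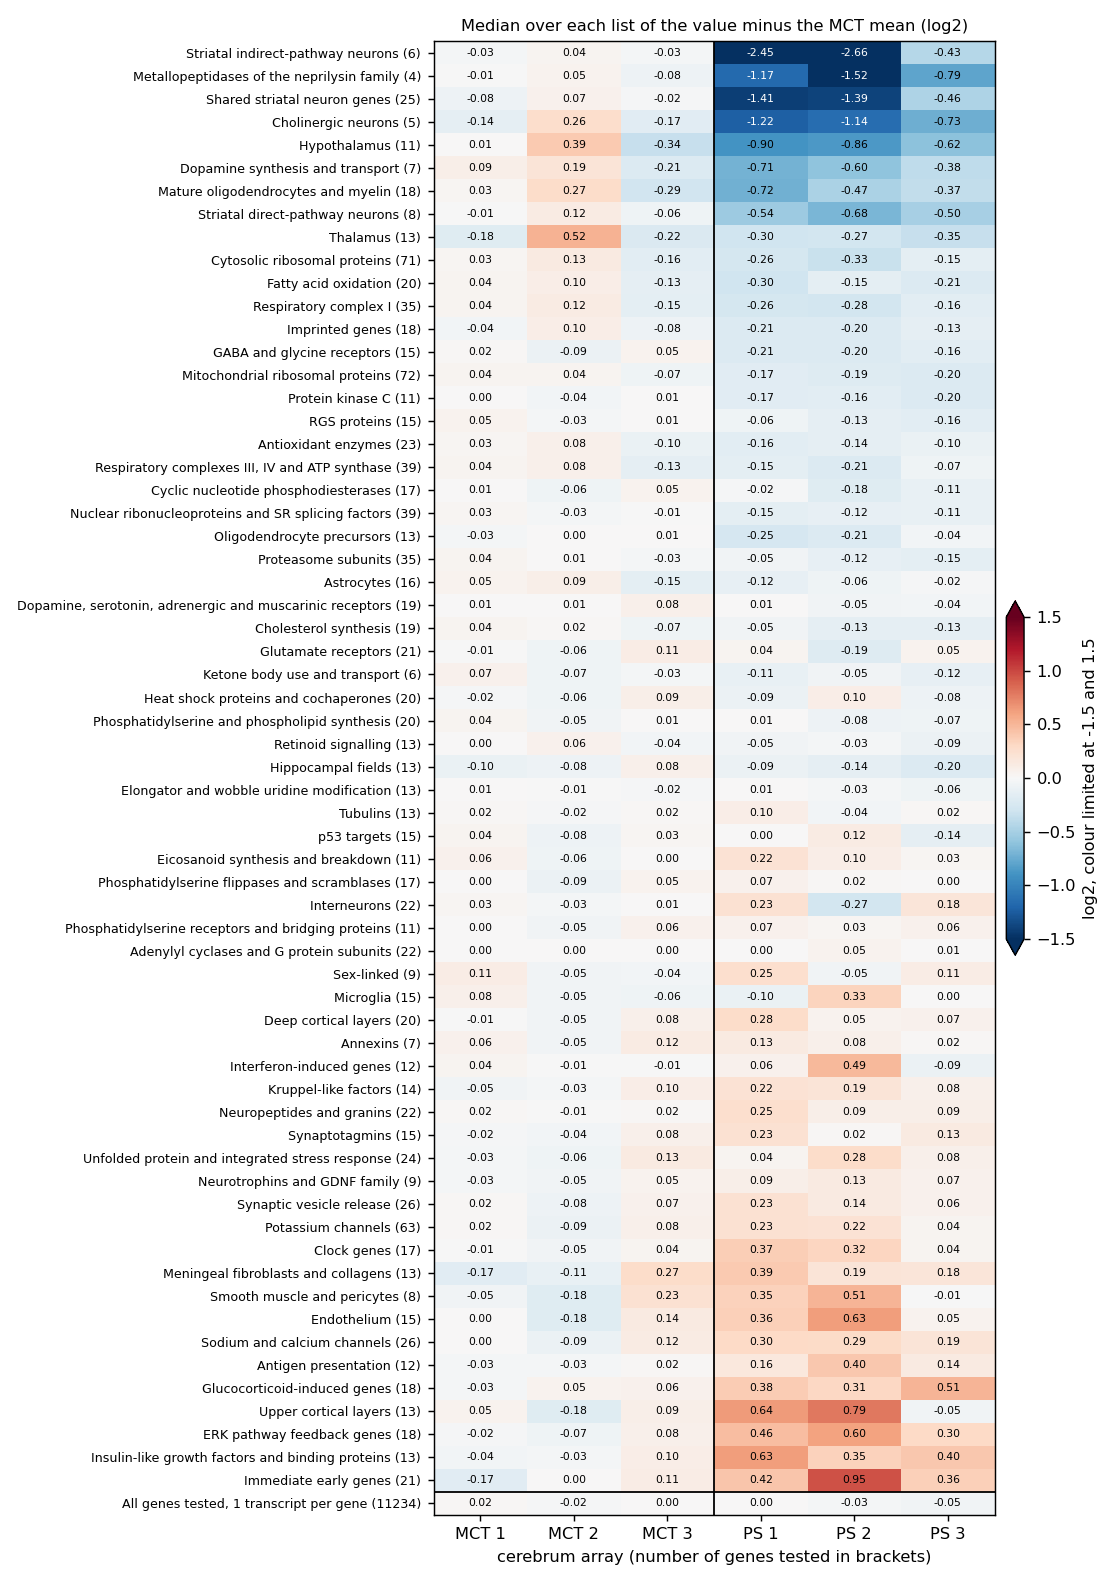
Median over the tested genes of each list of the value minus the mean of the 3 MCT arrays (log2), for each cerebrum array, with lists ordered by the difference between the group means and all tested genes in the bottom row. Among the lists with at least 4 tested genes, which are those drawn, the lowest medians are those of the indirect-pathway, neprilysin-family, shared striatal, cholinergic and hypothalamic lists and the highest those of the immediate early and insulin-like growth factor lists, and PS 3 is nearer to MCT than PS 1 and PS 2 for the striatal lists.

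Some neuropeptide genes of cortical interneurons rose, while some other genes of inhibitory neurons fell. Npy, the precursor of neuropeptide Y, was 9.92, 9.86 and 9.89 in MCT and 10.78, 11.20 and 10.76 in PS, a 2.03-fold rise (1.02 ± 0.13, limma adjusted p = 0.0159). Cholecystokinin (Cck) was 10.14, 9.78 and 10.25 in MCT and 10.75, 10.93 and 10.72 in PS (0.74 ± 0.13), and somatostatin (Sst) 10.44, 10.47 and 10.45 against 10.95, 10.76 and 11.06 (0.47 ± 0.09). In all 3 peptides PS 3, like the other PS arrays, was above every MCT array, as was so for every gene called higher. Vgf, a secreted precursor induced by neurotrophins, rose by 0.97, and Pcsk1n, an inhibitor of the prohormone convertase, by 0.50, from 11.23, 11.37 and 11.07 to 11.66, 11.77 and 11.73. Pituitary hormone transcripts were high in PS 3, less so in PS 1 and at the MCT level in PS 2, and PS 2 was the highest array for Npy, Cck, Vgf and Pcsk1n but the lowest PS array for Sst, where PS 3 was highest. Their part in these rises was not tested. The glutamate decarboxylase Gad2 was 9.75, 9.79 and 9.74 in MCT and 9.02, 8.85 and 9.38 in PS (−0.68 ± 0.13), and Dlx6, a homeobox gene of forebrain inhibitory neurons, fell by 1.35. Of 22 interneuron genes tested, 15 were higher and 7 lower, and 3 rose and 2 fell. Their median was 0.04, or −0.06 without PS 3 and 0.23 without PS 2. The other decarboxylase Gad1 differed by −0.04 and the inhibitory marker Slc32a1 by −0.51, and neither passed.

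Hypothalamic genes were lower in 9 of 11 tested members, and 3 fell, with a median of −1.01, or −0.60 over all measured members without the filter. Baiap3, a regulator of dense-core vesicle exocytosis, was 6.11, 6.48 and 5.62 in MCT and 4.68, 4.64 and 4.97 in PS, and Hap1, the huntingtin-associated protein, 8.75, 8.92 and 8.62 against 7.36, 6.91 and 8.08. Both fell by 1.31, and Gpr165 fell by 1.01. The PS mean of Baiap3 (4.76) was below the filter, so the size of its fall is uncertain. Oxytocin (Oxt) was 6.85 and 6.86 in MCT 1 and MCT 2 and 5.07 to 5.36 in MCT 3 and the PS arrays, the same split of arrays as for Ttr, and did not pass. Among peptidases of the neprilysin family 3 of the 4 tested fell. Besides Ecel1 these were neprilysin (Mme), which degrades enkephalins and amyloid β, at 7.47, 7.31 and 7.38 in MCT and 5.90, 5.63 and 6.45 in PS (−1.39 ± 0.19, limma adjusted p = 0.0227), and Ece2, at 6.94, 7.09 and 6.80 against 6.08, 5.67 and 6.29 (−0.93 ± 0.16). The fourth, Ece1, was at 0.32 and did not pass.

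Of 18 tested imprinted genes, which are expressed from 1 parental allele, 14 were lower and 4 fell. Dlk1, a Notch-related membrane protein, was 7.56, 8.0 and 7.43 in MCT and 5.49, 5.17 and 6.09 in PS, 4.23-fold lower (limma adjusted p = 0.0136). Peg10, derived from a retrotransposon, was 9.24, 9.65 and 9.23 in MCT and 7.45, 8.10 and 7.57 in PS, 3.17-fold lower. Grb10, an adaptor that dampens insulin receptor signalling, fell by 0.86 and Usp29 by 0.66. The list's median was −0.19 (−0.12 without MCT 2), smaller in size than these 4 falls. An unadjusted p under 0.05 in limma was reached by 7 lower members and 1 higher one. Over all 11234 genes tested it was reached by 1966 lower and 1323 higher.

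Myelin and oligodendrocyte genes were lower in all 18 tested members, with a median of −0.52, and 4 fell. Opalin was 7.88, 7.80 and 7.01 in MCT and 5.99, 6.37 and 6.28 in PS (−1.35 ± 0.23, limma adjusted p = 0.0337). Aspartoacylase (Aspa), which frees acetate for myelin lipids, was 7.49, 7.47 and 6.60 in MCT and 5.91, 5.96 and 6.14 in PS, and the surface glycoprotein Mog 8.84, 9.08 and 8.51 against 7.88, 8.18 and 8.19. MCT 3 was the lowest MCT array in all 3 genes. The tetraspanin Tspan2 fell by 0.59, and the galactosyltransferase of myelin lipids Ugt8a (−0.57) did not pass. Precursors of these cells differed less, with 9 of 13 lower, a median of −0.11 (−0.22 without PS 3, 0.00 in size without PS 1 and −0.26 with the filter at the 60th percentile) and 0 past the threshold in limma (7 with an unadjusted p under 0.05). Astrocyte genes had 0 of 16 past the threshold (4 with an unadjusted p under 0.05) and a median of −0.09 (−0.18 without MCT 3 and −0.02 without MCT 1).

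Microglial genes had 0 of 15 past limma's threshold (1 with an unadjusted p under 0.05), and their median of 0.10 was 0.18 without PS 1, 0.02 with the filter at the 60th percentile and −0.04 without PS 2, in which C1qc reached 8.76 against 7.25 to 7.33 in MCT. Endothelial genes were higher in 12 of 15, the median being 0.26 (0.16 without MCT 2 and 0.49 without PS 3) and 1 call, the glucose transporter Slc2a1 of the blood-brain barrier, at 9.93, 9.92 and 10.11 in MCT and 10.63, 10.53 and 10.57 in PS (0.59 ± 0.08, adjusted p = 0.0239). The 3 PS arrays were alike for Slc2a1, while the endothelial markers Pecam1 and Cdh5 overlapped between groups. Smooth muscle and pericyte genes (7 of 8 higher) and meningeal genes (12 of 13 higher) had 0 past the threshold, with 1 and 4 at an unadjusted p under 0.05. No ependymal gene passed the filter.

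Genes that neurons switch on with activity were higher with PS in 20 of 21 tested members, with a median of 0.61, or 0.38 without PS 2, and 3 rose. Egr3 was 7.53, 7.73 and 7.98 in MCT and 8.82, 9.44 and 8.64 in PS, a 2.33-fold rise (1.22 ± 0.21, limma adjusted p = 0.0342). The AP-1 subunit Fosl2 was 6.43, 6.63 and 6.82 in MCT and 7.33, 7.95 and 7.53 in PS, and the orphan nuclear receptor Nr4a2 7.96, 7.81 and 8.07 against 8.90, 8.83 and 8.31. The synaptic gene Arc was 8.42, 8.79 and 8.63 in MCT and 9.70, 10.44 and 9.23 in PS and narrowly missed the threshold (adjusted p = 0.052). PS 2 was the highest array for Egr3, Fosl2 and Arc.

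Feedback genes of the ERK pathway, which are induced by it and in part restrain it, were higher in 17 of 18 tested members, with a median of 0.45, and 5 rose. The ETS transcription factor Etv5 was 7.61, 7.49 and 7.78 in MCT and 8.76, 8.80 and 8.42 in PS (1.03 ± 0.13, limma adjusted p = 0.0159). The ERK phosphatase Dusp5 was 6.02, 6.06 and 6.10 in MCT and 6.98, 7.15 and 6.69 in PS, a 1.84-fold rise, and Dusp4 was 5.61, 5.70 and 6.02 against 7.07, 6.71 and 6.34. Ier3 rose by 0.57 and Spred2, an inhibitor of Raf activation, by 0.48. Spry4 (0.51) and Dusp14 (0.63) did not pass. Genes induced by glucocorticoids were higher in 17 of 18, the median being 0.38, and besides Zbtb16 those that rose were the cell cycle inhibitor Cdkn1a, at 7.78, 7.54 and 7.81 in MCT and 8.57, 9.07 and 9.43 in PS, the clock gene Per1, at 8.49, 8.57 and 8.59 against 9.25, 9.03 and 9.02, and the kinase Sgk1, at 7.72, 7.93 and 7.97 against 8.46, 8.18 and 8.40. Cdkn1a is also a target of p53, and of 15 tested p53 targets it alone passed. Of 17 clock genes 14 were higher, with a median of 0.20 (0.12 without PS 1, 0.36 without PS 3), and Per2 rose by 0.77 beside Per1.

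The promoters of 4 of these genes are shown, picked among those that rose because their windows hold a motif. Each gene belongs to a list in which all but 1 of the tested members were higher with PS. Binding motifs are known for the pathways that induce these genes. The sequences are RefSeq windows of 300 bases on GRCm38.p6, from 250 bases before to 50 after an annotated start, written 5′ to 3′ on the gene's strand. Capitals mark the core of the cyclic AMP response element, TGACG on either strand, in Nr4a2 (chr2:57123954-57124253, minus strand) and Per1 (chr11:69099902-69100201, plus strand). In Dusp5 (chr19:53528895-53529194, plus strand) they mark that core and 2 adjacent CArG boxes, which serum response factor can bind. In Sgk1 (chr10:21993640-21993939, plus strand) they mark the full palindrome of the glucocorticoid response element, which is AGAACA, any 3 bases and then TGTTCT.
Nr4a2: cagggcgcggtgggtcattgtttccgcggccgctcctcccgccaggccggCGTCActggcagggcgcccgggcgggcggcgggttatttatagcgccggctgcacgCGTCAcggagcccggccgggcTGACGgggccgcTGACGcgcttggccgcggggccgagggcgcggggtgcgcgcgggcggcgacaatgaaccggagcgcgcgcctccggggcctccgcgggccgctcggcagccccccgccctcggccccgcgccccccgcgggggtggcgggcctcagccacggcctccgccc
Dusp5: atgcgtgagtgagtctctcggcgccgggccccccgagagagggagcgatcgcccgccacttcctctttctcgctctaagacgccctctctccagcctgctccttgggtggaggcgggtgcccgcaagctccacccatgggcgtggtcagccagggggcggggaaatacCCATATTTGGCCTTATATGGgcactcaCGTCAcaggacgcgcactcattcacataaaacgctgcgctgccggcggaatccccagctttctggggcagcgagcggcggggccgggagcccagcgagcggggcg
Per1: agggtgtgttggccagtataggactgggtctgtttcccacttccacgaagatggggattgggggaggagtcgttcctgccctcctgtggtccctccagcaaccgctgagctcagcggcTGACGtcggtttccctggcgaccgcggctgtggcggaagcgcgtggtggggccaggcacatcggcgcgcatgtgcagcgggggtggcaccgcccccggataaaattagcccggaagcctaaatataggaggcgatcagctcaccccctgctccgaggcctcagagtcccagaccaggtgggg
Sgk1: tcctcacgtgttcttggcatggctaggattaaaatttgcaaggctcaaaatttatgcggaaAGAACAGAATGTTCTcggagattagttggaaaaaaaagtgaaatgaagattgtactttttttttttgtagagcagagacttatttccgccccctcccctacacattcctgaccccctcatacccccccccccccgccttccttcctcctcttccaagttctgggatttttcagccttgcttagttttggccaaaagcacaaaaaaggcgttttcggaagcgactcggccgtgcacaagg
Nr4a2 held 4 copies of the core. Spred2, which rose and held the core, is not shown. Cdkn1a, Etv5, Fosl2 and Ier3 rose as well, and their windows held none of these motifs. The core was in a window of 14 of the 18 immediate early genes with one (77.8%), 6 of 16 ERK feedback genes (37.5%) and 9 of 19 glucocorticoid-induced genes (47.4%), beside 35.8% of tested genes and 23% of all 27025 genes with a window. It was in 34.9% of the called higher and 33.4% of the called lower genes with a window. The full palindrome was in 3 of the 27025 genes (0.0111%), of which Sgk1 was the only one tested. A CArG box was in 1 of 18 immediate early and 1 of 16 ERK feedback genes, beside 1.81% of all. These are matches of letters and not shown to be binding sites.

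Genes of insulin-like growth factor (IGF) signalling, which supports the growth and survival of neurons and glia, were higher in 12 of 13 tested members, with a median of 0.49, and 4 rose. Irs2, an adaptor that links insulin and IGF receptors to PI3 kinase, was 6.83, 6.95 and 7.02 in MCT and 7.83, 7.62 and 7.59 in PS, a 1.68-fold rise (0.75 ± 0.10, limma adjusted p = 0.0182). Irs1 was 6.47, 6.49 and 6.47 in MCT and 7.29, 7.04 and 7.05 in PS (0.65 ± 0.09). The ligand Igf1 was 5.55, 5.60 and 5.67 in MCT and 6.25, 5.96 and 6.08 in PS, and the binding protein Igfbp6 8.05, 7.73 and 8.04 against 8.59, 8.68 and 8.43. In each of these 4 genes PS 3 was close to the other PS arrays. All PS arrays were above all MCT arrays, as was so for every gene called higher. The receptor Igf1r (0.52, adjusted p = 0.0573), Igfbp7 (0.83) and Igfbp4 (0.50) did not pass. The list stands beside Grb10, which fell, and Eif4ebp2, which rose, both of the same pathway but not on the list.

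Receptors for inhibitory transmitters that passed limma's threshold were falls. Of 15 tested GABA and glycine receptor genes 11 were lower and 3 fell. Glra3 was 6.30, 5.87 and 6.16 in MCT and 5.44, 4.85 and 4.67 in PS (−1.12 ± 0.20, limma adjusted p = 0.0349), and the GABA receptor subunit Gabrg1 7.88, 7.99 and 7.66 against 6.62, 6.77 and 7.21 (−0.98 ± 0.16), beside Glra2 above. The PS mean of Glra3 (4.99) was below the filter, so the size of its fall is uncertain. The median of the list was −0.18 (−0.10 without MCT 3 and −0.07 with the filter at the 60th percentile), and the common forebrain subunits Gabra2 (−0.34) and Gabra4 (−0.27) did not pass. Gabbr2 was higher, at 10.20, 10.10 and 10.47 in MCT and 10.88, 10.64 and 10.49 in PS (0.41), and did not pass either. Of 21 tested glutamate receptor genes 1 passed, the presynaptic receptor Grm2, which rose by 0.84, from 8.45, 7.90 and 8.48 to 9.32, 9.04 and 9.0. The NMDA receptor subunit Grin2a was at 0.89 with an adjusted p of 0.0561.

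Potassium channel genes were higher in 46 of 63 tested members, with a median of 0.18 (0.28 without MCT 3). Of these 63, 0 rose and 2 fell, a share of falls near that of all genes (441 of 11234). The β subunit Kcnab1 was 9.57, 9.58 and 9.48 in MCT and 8.46, 8.47 and 8.84 in PS (−0.95 ± 0.12, limma adjusted p = 0.0159), and the inward rectifier Kcnj2 fell by 0.43. Of 26 sodium and calcium channel genes 18 were higher, with a median of 0.26 (0.17 without MCT 2 or without the filter). The T-type calcium channel Cacna1g rose by 0.56, from 7.11, 7.05 and 7.26 to 7.78, 7.79 and 7.54, while the accessory subunits Cacna2d2 (−0.79), Cacng4 (−1.0) and Scn4b fell. Of 26 genes of synaptic vesicle release 22 were higher, with a median of 0.16 (0.08 without MCT 2). Unc13c, a priming factor of vesicles, fell instead, at 8.05, 8.12 and 7.61 in MCT and 6.40, 6.28 and 6.68 in PS for the transcript cluster with the lowest p, and 6 of its 7 tested transcript clusters passed. The vesicle glycoprotein Sv2c, enriched in basal ganglia, fell by 0.92.

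Genes that make, move and read PS differed little as groups. Of 20 tested genes of PS and phospholipid synthesis 12 were lower, with a median of −0.04. The PS synthase Ptdss2, which makes PS from phosphatidylethanolamine, was 8.39, 8.33 and 8.37 in MCT and 7.95, 8.08 and 8.01 in PS (−0.35 ± 0.07, limma adjusted p = 0.0443). The cholinephosphotransferase Chpt1 fell by 0.43, from 9.05, 9.12 and 8.85 to 8.51, 8.57 and 8.66, and Cdipt, which makes phosphatidylinositol, rose by 0.40, from 9.69, 9.51 and 9.73 to 10.11, 10.08 and 9.95. All 3 changes were small, at 1.27-fold to 1.34-fold. Of 17 flippases and scramblases only the flippase Atp10a passed, at 6.02, 5.79 and 6.13 in MCT and 6.43, 6.56 and 6.75 in PS (0.60 ± 0.12). Among 11 tested receptors and bridging proteins for exposed PS, 2 kinases of 1 family moved in opposite directions. Mertk rose by 0.47, from 7.62, 7.41 and 7.61 to 7.96, 8.05 and 8.04, and Axl fell by 0.37, from 7.97, 7.96 and 7.80 to 7.59, 7.51 and 7.52.

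Of 11 protein kinase C and D genes, kinases that bind PS through their regulatory domains, 8 were lower and 2 fell. Prkch was 6.91, 7.39 and 7.12 in MCT and 5.27, 5.22 and 6.37 in PS (−1.52 ± 0.30, limma adjusted p = 0.0383), with PS 3 again intermediate, and Prkcq 6.79, 6.98 and 6.61 against 6.08, 6.35 and 5.91 (−0.68 ± 0.14). The isoforms Prkcb (−0.06) and Prkce (−0.02) overlapped between the groups. Of 15 tested synaptotagmins 11 were higher, with a median of 0.14 (0.07 without PS 1), and Syt13 (0.63) and Syt12 (0.52) rose. Annexins, another family that binds acidic phospholipids, had 0 of 7 past limma's threshold and 1 with an unadjusted p under 0.05. Of 13 tested genes of Elongator and the modification of wobble uridines, Elp4, a subunit of the complex, fell by 0.45, from 8.27, 8.36 and 8.27 to 7.76, 7.83 and 7.95, and Urm1, which supplies sulfur for the same uridines, by 0.40, while the median of the list was 0.00 in size. Of 9 tested genes of neurotrophins and the GDNF family, both calls were falls of GDNF receptor parts, Gfra1, at 8.15, 8.20 and 8.14 in MCT and 7.40, 7.76 and 7.50 in PS (−0.61 ± 0.10), and Ret (−0.69).

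Transcripts for ribosomes and mitochondria were lower by small amounts across many members. Of 71 cytosolic ribosomal protein genes 64 were lower, with a median of −0.24, and 4 fell. Over all 11234 genes tested 6054 were lower and 441 fell, so the share of calls was near that of all genes. Rpl3 was 11.44, 11.51 and 11.38 in MCT and 10.72, 10.90 and 10.69 in PS (−0.67 ± 0.09, limma adjusted p = 0.0182), and Rpl5 (−0.58), Rps19 (−0.50) and Rpl9 (−0.52) were the others. Many of these genes have processed copies, so their signal may include those. Of 72 mitochondrial ribosomal protein genes 60 were lower, with a median of −0.18, and 8 fell, among them Mrpl46 (−0.62), Mrps28 (−0.60) and Mrpl13, at 7.89, 7.85 and 7.56 in MCT and 7.22, 7.17 and 7.17 in PS. Mrps21 rose against the rest of this list. Of 35 complex I genes 27 were lower, with a median of −0.20, and Ndufs4 (−0.55) and Ndufa11 (−0.53) fell. For complex I too the share of calls was near that of all genes.

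Of 39 tested genes of complexes III and IV and ATP synthase 31 were lower, with a median of −0.14 (−0.23 without MCT 3), and 5 fell. Uqcr11 of complex III was 8.69, 8.78 and 8.49 in MCT and 7.74, 7.59 and 7.90 in PS (−0.91 ± 0.11, limma adjusted p = 0.0162), and cytochrome c (Cycs) 11.67, 11.70 and 11.57 against 11.17, 11.17 and 11.18. The others were Atp5j2 (−0.47), Cox6b1 (−0.48) and Uqcrb (−0.42). Fatty acid oxidation genes were lower in 18 of 20, the median being −0.22. Of these 20 the thiolase Acaa2 (−0.53) and the electron carrier subunit Etfa (−0.48) fell, beside 441 of all 11234 genes tested. Of 6 tested genes of ketone body use the monocarboxylate transporter Slc16a1, which brings lactate and ketone bodies into brain, fell by 0.68, from 8.55, 8.25 and 8.22 to 7.84, 7.52 and 7.63. Among 23 antioxidant genes 16 were lower, and Prdx1 fell by 0.57 and the secreted peroxidase Gpx3 by 1.74. Gpx3 was 7.82, 8.31 and 6.94 in MCT and 5.98, 5.36 and 6.50 in PS, with MCT 3 lowest of its group as for Ttr. Of 35 proteasome genes 25 were lower, Psma1 fell by 0.38 and Psmd7 rose by 0.40, a share of calls near that of all genes.

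Splicing factors were mostly lower. Of 39 tested genes of nuclear ribonucleoproteins and SR proteins 31 were lower, with a median of −0.11, and 5 fell. Hnrnpa3 was 9.66, 9.61 and 9.74 in MCT and 8.98, 8.92 and 9.0 in PS in the transcript cluster with the lowest p (−0.70 ± 0.08, limma adjusted p = 0.0136). All 9 of its transcript clusters passed, but they are near-identical copies and are counted here as 1 gene. Hnrnph3 was 8.0, 7.99 and 8.08 in MCT and 6.98, 7.36 and 7.34 in PS (−0.80 ± 0.12), and Srsf5 (−0.57), Hnrnpr (−0.41) and Hnrnpd (−0.39) fell too.

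Lipid mediator genes included calls and immune genes few. Of 11 tested genes of eicosanoid synthesis and breakdown 3 rose, the inducible prostaglandin synthase Ptgs2, at 7.10, 6.74 and 7.56 in MCT and 8.13, 8.41 and 7.94 in PS, the prostaglandin D synthase Ptgds, at 10.47, 10.55 and 10.80 against 11.30, 10.99 and 11.21, and the lipoxygenase Alox12b (1.55), whose MCT mean was below the filter. Antigen presentation genes were higher in 12 of 12, the median being 0.33 (0.17 without PS 2), and the class II gene H2-Aa rose by 0.67. Interferon-induced genes were higher in 11 of 12, 0 of them past limma's threshold and 1 with an unadjusted p under 0.05, and their median of 0.14 was 0.02 without PS 2 and 0.25 without PS 1. Of 20 heat shock genes the small protein Hspb1 rose by 1.28 and 1.25 for its tested transcript clusters and the cochaperone Dnajb5 by 0.66, while the mitochondrial cochaperone Hspe1 fell by 0.54. Its partner chaperonin Hspd1 fell by 0.61 in 1 of its 2 tested transcript clusters, and the other, which stands for it in the list, was at −0.39 with an adjusted p of 0.0525. Genes of the unfolded protein response were higher in 21 of 24, the median being 0.15 (0.08 without PS 2), 0 past limma's threshold and 2 at an unadjusted p under 0.05. Tuba8, a divergent α tubulin, was the only 1 of 13 tubulin genes to pass, at 8.03, 7.30 and 7.80 in MCT and 8.73, 9.23 and 8.72 in PS.

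The array also covers the genes of small RNAs, which were looked at after their values were seen. Of 53 tested transcript clusters of microRNA genes 4 passed, all of them higher with PS, and the median was 0.17. Mir9-1 was 5.10, 4.91 and 5.16 in MCT and 5.88, 5.85 and 5.91 in PS (0.82 ± 0.09, limma adjusted p = 0.0136). Mir128-1 was 5.87, 5.43 and 5.55 in MCT and 6.56 in each PS array (0.94 ± 0.12), Mir181b-1 5.70 and 6.86 on average (1.16 ± 0.22) and Mir674 5.47 and 5.98 (0.51 ± 0.10). The probes read transcripts of the gene and do not measure the mature microRNA. Mature sequences of the 4 genes are shown because the seed, bases 2 to 8 in capitals, decides which messages a microRNA pairs with. They come from RefSeq on GRCm38.p6, which had 44 of the 52 tested genes, and lie on the plus strand, miR-9-5p at chr3:88215613-88215635, miR-128-3p at chr1:128202404-128202424, miR-181b-5p at chr1:137966650-137966673 and miR-674-5p at chr2:117185151-117185172.
mmu-miR-9-5p: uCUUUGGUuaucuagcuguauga
mmu-miR-128-3p: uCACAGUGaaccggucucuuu
mmu-miR-181b-5p: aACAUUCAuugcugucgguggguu
mmu-miR-674-5p: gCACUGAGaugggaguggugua
No 2 of these share a seed. Mir9-2, another gene of the same family as Mir9-1, was at 0.26 and did not pass.

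Genes of small nucleolar and Cajal body RNAs, which guide the modification of ribosomal and spliceosomal RNA, had more falls. Of 37 tested transcript clusters 9 fell and 1 rose, with a median of −0.41. Among all tested transcript clusters 3.93% fell and 1.83% rose. Snora44 was 8.06, 8.42 and 7.77 in MCT and 5.85, 5.83 and 5.85 in PS (−2.24 ± 0.15, limma adjusted p = 0.0109), the lowest p of all tested transcript clusters. Snora16a was 8.54, 8.84 and 8.77 against 7.10, 6.91 and 7.49, and Scarna13 9.04, 9.18 and 9.31 against 7.57, 7.52 and 7.94. Snora73a (−1.32), Snora73b (−1.29), Snord35b (−1.07), Snord104 (−1.01), Snora34 (−0.76) and Snora31 (−0.71) fell too, and Snord57 rose by 0.81. The PS mean of Snord35b (4.85) was below the filter, so its size is uncertain. In heart the 9 genes also differed between vehicle arrays, with MCT 3 below MCT 1 and MCT 2 in each. Snora44 was 9.92, 9.57 and 6.58 in heart MCT and 6.67, 7.07 and 6.88 in heart PS. The source of that spread was not tested. Most of these RNAs are cut from introns of host genes, and precursor and mature RNA are not told apart by the array.

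The PS difference in cerebrum was set against that in the heart of the same series by the interaction term of a limma fit over all 12 arrays. The term passed for 194 of 12731 transcript clusters (1.52%). Ecel1 (−2.51 in cerebrum, 0.12 in heart), Mrps21 (1.25 and −0.23), Npy (1.02 and −0.16), Pcsk1n (0.50 and −0.60), Peg10 (−1.67 and 0.61), Dlk1 (−2.08 and 0.06), Hnrnpa3 (−0.70 and 0.43), Grm2 (0.84 and −0.31) and Axl (−0.37 and 0.89) were among them. Tac1 (interaction −2.79), Drd2 (−3.69) and Sh3rf2 (−2.43) did not pass. Zbtb16 (1.16 and 1.88), Per1 (0.55 and 0.99) and Slc2a1 (0.59 and 0.65) had positive differences in both tissues and no interaction past the threshold. In heart all 3 PS arrays had the female pattern of Xist and Uty and all 3 MCT arrays the male pattern, so that sex and treatment cannot be told apart there. Without MCT 1 of cerebrum the term passed for 3 transcript clusters and without PS 3 for 364.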

How the data were processed

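Each sample is 1 microarray of total RNA, extracted with RNeasy Plus and labelled with a whole-transcript kit, per the labels' protocols. The deposited table holds 1 log2 value per transcript cluster and array, summarised by the authors with Expression Console of Affymetrix, a tool named in the submitters' processing notes. Its version, its background correction and the build were not given in the sources used here. Since values run from 1.90 to 13.11, above the 11.1 that natural logarithms of 16-bit intensities could reach, they were taken as log2, and they were not normalized again. Arrays give no count depth, and 3 per group limit the precision.

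Of 35556 transcript clusters, 21218 had 1 gene symbol in the platform annotation, 1881 several and 12457 no entry. Identifiers of 21185 matched the gene table and 0 symbols changed. Transcript clusters with a mean of at least 5.04 over the 6 arrays, the 40th percentile, were tested with limma 3.58.1 in R 4.3.3 (lmFit and eBayes, groups only) with Benjamini-Hochberg adjustment over all of them. Differences are PS minus MCT, with SE from the fit. The difference from heart is the interaction term of a fit over 12 arrays. The procedure was checked on simulated data. A gene with several transcript clusters enters a list with the one of highest mean level unless stated.

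Genes were named by rule: the 15 lowest p-values and the 15 largest differences among calls in each direction, up to 6 per list by p plus every call, and up to 5 per direction by interaction p. Unnamed gene models and small RNAs were outside it. The comparison and the 67 lists were chosen with earlier results of these data known, and the small RNA genes and tissue markers were chosen after values were seen. Sequences are those of RefSeq. Alternatives covered normalization, filter, variance model, array weights, sex pattern, the replicate number as a block and each array left out.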

Additional observations from a re-analysis of the deposited data

Results flagged for a closer look

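For 40 genes named by rule, the PS difference was not the same in cerebrum and heart by limma's interaction term (Benjamini-Hochberg adjusted p under 0.05, cerebrum difference minus heart difference on the log2 scale). In heart the female pattern of Xist and Y-linked genes coincided with PS in all arrays, so treatment and sex cannot be told apart there, and in cerebrum it was present in PS 1 and PS 3. Left out one at a time, the cerebrum arrays moved the number of transcript clusters past this threshold between 3 and 364.

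The difference was higher in cerebrum for 8 of these genes. These were Galnt9 (1.5), Mrps21 (1.48), B3galt2 (1.46), Npy (1.18), Grm2 (1.16), Pcsk1n (1.10), Itgb6 (1.02) and Ethe1 (0.74). Itgb6 was below the filter in cerebrum (3.47 in MCT and 3.62 in PS), so its gap is that of the heart, where the difference was −0.86. The gap of B3galt2 is also mainly that of the heart, with a difference of 0.06 in cerebrum and −1.40 in heart. Npy, Grm2 and Pcsk1n are neuronal genes, of a peptide, a glutamate receptor and a convertase inhibitor.

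The difference was lower in cerebrum for the other genes. Ecel1 had the largest gap (−2.62), followed by Peg10 (−2.27), Nexn (−2.14) and Dlk1 (−2.14), of which Nexn, an actin-binding protein of heart muscle, did not reach the mean needed for a test within cerebrum. Next came Rarb (−1.92), Prkch (−1.88), Doc2b (−1.77), Arhgap6 (−1.74), Gpc3 (−1.69), Rasgrp2 (−1.68), Hap1 (−1.54) and Unc13c (−1.5). Baiap2 (−1.42), Grb10 (−1.37), Dlx6 (−1.31), Axl (−1.26), Tmem158 (−1.26), Mamdc2 (−1.17) and Hnrnpa3 (−1.13) were between these and the smaller gaps. Those were Gfra1 (−1.05), Hmgn5 (−1.03), Cacna2d2 (−1.02), Ptgr2 (−1.02), Hspd1 (−1.0), Hnrnph3 (−0.98), Slc16a1 (−0.94), Tspan2 (−0.90), Lmo2 (−0.78), H2-Ke6 (−0.77), Sgce (−0.76), Acaa2 (−0.75) and Hnrnpd (−0.68). Peg10, Dlk1, Grb10 and Sgce are imprinted, and Rarb, Rasgrp2 and Tmem158 were among the striatal genes that fell in cerebrum. The gap of Baiap2 is mainly that of the heart, with a difference of 0.07 in cerebrum and 1.49 in heart.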

How the results depend on the processing

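The count of 734 was within 1.5 times its size under quantile normalization (728, 40.9% of them higher), centring of arrays (988), the other filters, an intensity trend and robust variances. With the Xist pattern as a term the PS difference rests on PS 2 alone, so no count is given for that fit. The count was 3407 with array weights, 371 with all 12 arrays in the fit and 189 with transcript clusters of several or no symbols tested too. Leaving out 1 array gave 0 to 1557 for cerebrum and 3 to 364 for the difference from heart. With the replicate number as a block 0 passed (3083 had an unadjusted p under 0.05). For the difference from heart the block was another one, which joined the cerebrum and heart arrays of the same treatment and number, and 22 passed. Cerebrum PS 2 and heart PS 2 cannot both be from 1 animal, so that block is not borne out for this pair. No label says that the numbers pair the samples. Deviations of same-numbered cerebrum arrays correlated at 0.10, −0.15 and −0.26, which cannot decide it with so few arrays per group. The cause of these moves was not tested. The 153 called named genes kept their direction in all 3004 values under the alternatives and passed in 1937, and 22 values of other named genes changed sign. Where an alternative left the values themselves unchanged, the direction of called genes was fixed in advance, because their groups do not overlap. Of 790 list medians under the alternatives 96 moved by more than the spread between arrays. Under quantile normalization or centring a median changed sign only in lists whose median was within 0.03 of 0 (p53 targets, flippases and tubulins).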
